A study of Rattus norvegicus with 13 samples.

Results

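The 6 miRNAs described here, rno-miR-770-5p, rno-miR-127-3p, rno-miR-434-3p, rno-miR-3543, rno-miR-136-3p and rno-miR-341 (the species prefix is left out below), come from the first stretch of the imprinted Dlk1-Dio3 region on rat chromosome 6, between the gene Meg3 and a long block of small nucleolar RNA (snoRNA) genes. They were chosen by name and position from the 460 rat mature miRNAs of a read count table, and all 6 passed the low-count filter that left 419 miRNAs for testing. The counts are from small RNA libraries of whole kidneys of 13 female WAG/RijCmcr Wistar rats, 11 to 12 weeks old at irradiation, with 1 library per rat.

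Control rats (n = 4) were age-matched and were not irradiated. Irradiated rats (n = 4) received a single dose of 13 Gy of X-rays with 1 hind limb kept out of the beam. Rats of the third group (n = 5) received the same irradiation and, from day 7, lisinopril in the drinking water at about 24 mg per square metre of body surface per day; lisinopril inhibits angiotensin converting enzyme. The protocol also lists saline injections and the antibiotic enrofloxacin as supportive care, without saying whether controls had them. Kidneys were collected on day 35. There was no group with lisinopril alone, so the drug's effect can be read only on top of irradiation. P-values measure the spread between these rats.

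The Dlk1-Dio3 region holds protein genes read from the paternal chromosome (Dlk1, Rtl1 and Dio3) and a series of non-coding RNAs read from the maternal one, which include Meg3, an antisense transcript of Rtl1, snoRNAs and many miRNAs. The maternal RNAs are thought to be made as long transcripts running through the region and then cut into separate products. Its miRNAs are best known from brain, placenta and embryonic tissue, and are generally low in adult kidney. miR-127, miR-434 and miR-136 lie opposite the coding sequence of Rtl1, match it perfectly, and direct its cleavage. miR-770 lies within Meg3.

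In the GRCr8 annotation, 16 miRNA genes stand between the start of Meg3 and the snoRNA block, and 7 of them gave a measured miRNA. Inside the bounds of Meg3 there was 1 miRNA gene, that of miR-770. Inside the bounds of Rtl1 there were 6, among them those of miR-127, miR-434, miR-3543 and miR-136. The block that follows held 84 annotated snoRNA genes. The gap between the hairpins of miR-127 and miR-434 was 1852 bases and that between miR-434 and miR-136 was 853 bases. The counts were made on rn4, another build, so no coordinates are given.

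The mature sequences are shown because they set the 6 apart from each other: in RefSeq (GRCr8), no 2 of them share a seed, the stretch of bases 2 to 8 (in capitals) by which a miRNA pairs with its targets, and no other rat miRNA in the sequence table has any of these seeds. All 6 had an entry there.
miR-770-5p: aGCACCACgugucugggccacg
miR-127-3p: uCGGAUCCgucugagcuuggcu
miR-434-3p: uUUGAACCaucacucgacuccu
miR-3543: cAGGAGUCgagugaugguucaaa
miR-136-3p: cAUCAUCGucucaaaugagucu
miR-341: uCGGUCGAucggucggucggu
They are 21 to 23 bases long. The sequences of miR-770-5p and miR-341 were rich in G and C (68.2% and 66.7%), against a median of 47.6% over 414 measured rat miRNAs with a sequence. miR-341 is built of short repeats: the stretch CGGUCGGU, searched as written on the strand of the RNA with overlaps counted, occurred 2 times in it and in no other of the 414.

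miR-3543 is annotated on the opposite strand to miR-434. Its reverse complement, printed to show the overlap, contains the whole of miR-434-3p (capitals) and 1 further base.
miR-3543 reversed: UUUGAACCAUCACUCGACUCCUg
The 2 entries had equal counts in 5 of 13 libraries and differed by at most 3 reads in the others, with 568 reads in all for miR-434-3p and 562 for miR-3543. No source used here says how the authors assigned reads to strands, and the 2 entries cannot be told apart as separate RNAs. They are treated below as a single signal, so that the 6 names stand for 5 measurements.

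Totals over rat miRNAs ran from 1194175 to 11095939 counts per library. Control library 2 was the shallowest and stood apart: features named after other species took 29.0% of its mature counts, where the other 12 libraries gave them 10.3% to 14.6%. Levels below are CPM, the reads of a miRNA relative to all rat miRNA reads of its library after TMM scaling. The floor, the CPM of 3 counts, was 3.19 in control library 2 and 0.289 to 0.561 in the others; it covers counting error only, as the reads carried no molecular identifiers. All 7 kidney tubule marker miRNAs were counted in every library, with miR-192-5p at 34750 to 95973 CPM.

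Among the 419 tested miRNAs ranked by mean level, miR-127-3p stood at place 230, miR-770-5p at 243, miR-434-3p at 309, miR-136-3p at 384 and miR-341 at 391. The rank of miR-770-5p came from control library 2; its median over the 13 libraries was 1.47 CPM, against 21.6 CPM for miR-127-3p, 6.02 for miR-434-3p, 1.51 for miR-136-3p and 1.26 for miR-341. The levels of miR-770-5p, miR-136-3p and miR-341 overlapped, so the order of these 3 was not separated by the spread between rats. miR-770-5p ran from 0.0970 to 244 CPM, so its range also took in those of miR-127-3p and miR-434-3p. Every value of miR-434-3p lay above every value of miR-136-3p and miR-341. For miR-136-3p the margin was 3.22 CPM (control library 1) against 3.19 CPM (control library 2), the latter from 3 reads. miR-136-3p and miR-341 rested on 3 to 25 and 1 to 26 reads per library, and miR-127-3p on 16 to 432.

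In kidneys of irradiated rats given lisinopril, miR-127-3p was 2.10-fold the control level and miR-341 2.50-fold, and both rose past the test's threshold, while miR-770-5p fell. The pair miR-434-3p and miR-3543, and miR-136-3p, did not pass. Between irradiated and control kidneys none of the 6 passed, and none did between irradiated kidneys with and without lisinopril. So 2 of 6 were higher and 1 lower in a comparison that called 6.21% of all 419 miRNAs (0.716% higher, 5.49% lower). The 6 count the overlapping pair as 2 names. The number of miRNAs higher there was 3, and it ranged from 2 to 17 over the alternatives, with 17 without irradiated library 2, with only these groups fitted, or with limma-voom and sample quality weights. In the other comparisons the background was 1.67% for irradiated against control (0.477% higher, 1.19% lower) and 0% for lisinopril against irradiated. edgeR gave an unadjusted p under 0.05 for 2 and 3 of the 6 in these, and for 93 and 63 of all 419 miRNAs. DESeq2 called 0 and 1 of the 6, and 24 and 9 of all 419. It gave no adjusted p for miR-770-5p in either comparison, nor for miR-136-3p and miR-341 in the second. Such members count as not called. With limma-voom none of the 6 was called, and 7 and 2 of all. Leaving out 1 library moved these backgrounds: without irradiated library 4, edgeR called 60 of 429 miRNAs for irradiated against control (35 higher, 25 lower) and 47 for lisinopril against irradiated (20 higher, 27 lower), and still none of the 6.

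**Figure D1:**
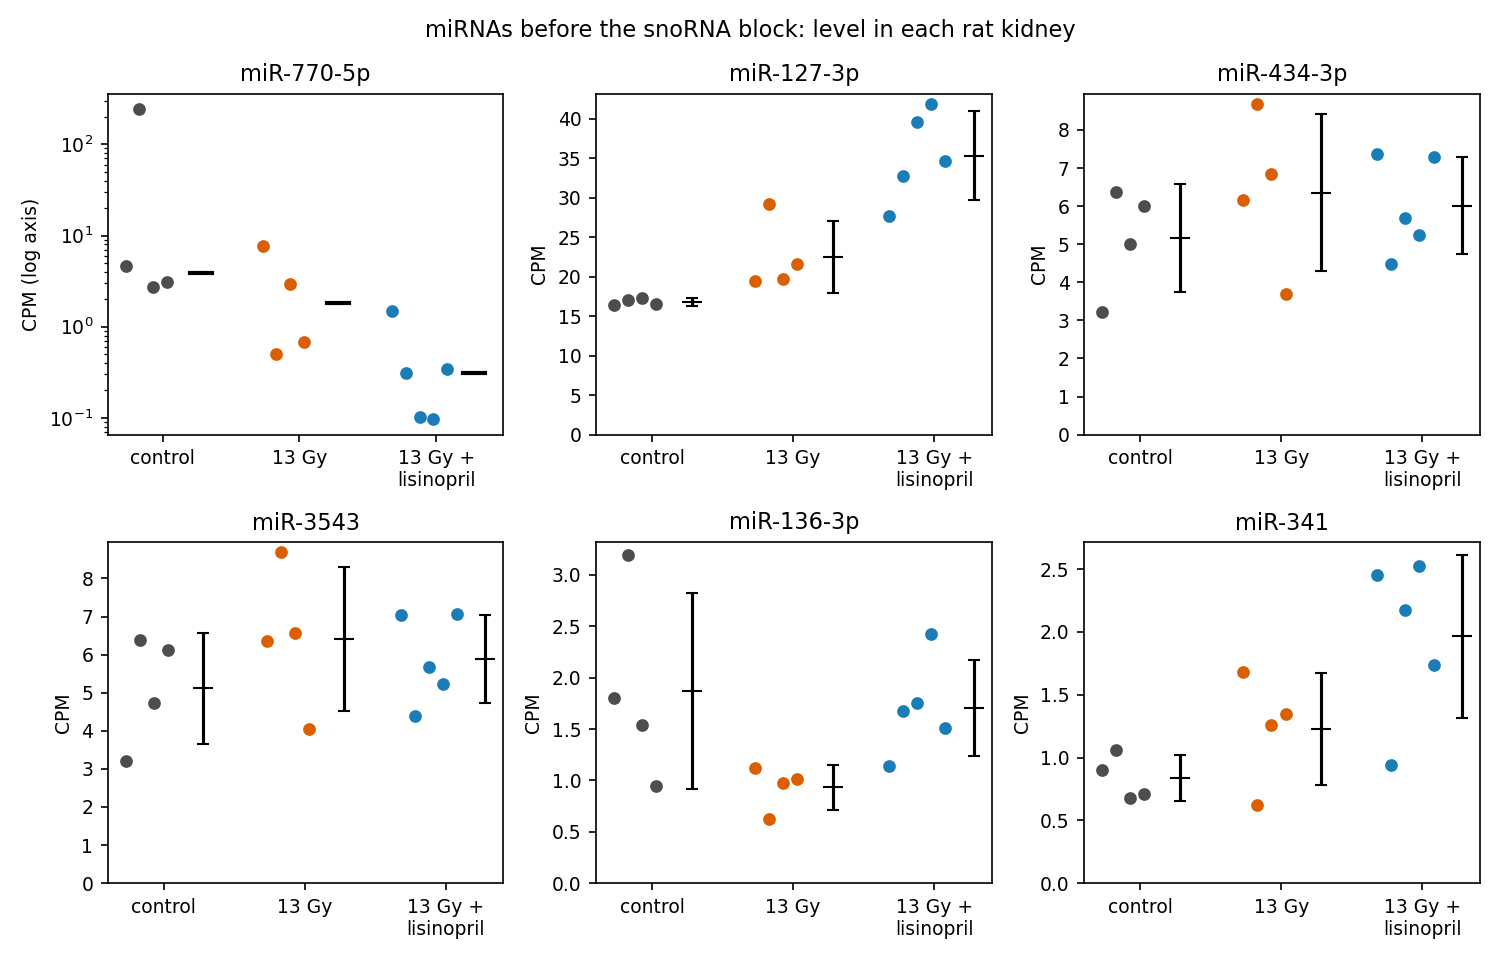
Level of each miRNA in CPM (vertical axis, log scale for miR-770-5p only) in each rat kidney (points) of the control (n = 4), 13 Gy (n = 4) and 13 Gy plus lisinopril (n = 5) groups; black bars are the mean ± SD, or for miR-770-5p the median. miR-127-3p lay between 16.4 and 17.4 CPM in the controls and between 27.6 and 41.9 CPM under lisinopril, and miR-770-5p stood at 244 CPM in a single control.

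Of the miRNAs that lie opposite Rtl1, miR-127-3p was the most abundant. It stood at 16.4, 17.0, 17.4 and 16.5 CPM in control rats 1 to 4. Irradiated rats had 19.4, 29.2, 19.7 and 21.6 CPM. With lisinopril the values were 27.6, 32.7, 39.6, 41.9 and 34.7 CPM. Every irradiated rat, with or without the drug, lay above every control, and 4 of 5 lisinopril rats lay above all rats irradiated without it.

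Group means of miR-127-3p were 16.8 ± 0.461 CPM in control (SD, n = 4), 22.5 ± 4.57 in irradiated (n = 4) and 35.3 ± 5.66 in lisinopril rats (n = 5). Lisinopril against control came to 1.07 on the log2 scale (SE 0.169, edgeR, adjusted p = 0.00107); 13.4% of tested miRNAs had no overlap between these groups. Over 25 alternative settings it stayed between 1.00 and 1.15, with an adjusted p of at most 0.0064. By exact two-sided permutation of log2 CPM, p was 0.00794, the lowest possible with 4 and 5 rats. The control SD was 2.74% of the mean, below the 14.4% that counting alone gives at these read numbers, so the evenness of the 4 controls is closer than their depth can resolve.

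Irradiation without the drug gave a log2 fold change of 0.42 for miR-127-3p (95% interval 0.046 to 0.80, adjusted p = 0.166), and lisinopril on top of irradiation gave 0.65 (0.30 to 1.00, adjusted p = 0.0931). Neither passed, although the first pair of groups did not overlap (exact permutation p = 0.0286, the lowest possible with 4 and 4 rats); 7.16% of all tested miRNAs had no overlap there. For the second pair the exact permutation p was 0.0238. DESeq2 and limma-voom with sample quality weights did call the second difference, at adjusted p = 0.0195 and 0.00272. The 2 comparisons share the irradiated rats, and each of them shares a group with the comparison of lisinopril against control.

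In bulk kidney RNA, a change in the share of a cell type and a change in RNA per cell cannot be told apart. Summed levels of 7 of 8 neural and endocrine marker miRNAs were 2331 to 2696 CPM in control, 2426 to 2752 in irradiated and 2190 to 2645 in lisinopril kidneys, with miR-153-3p at 0 in 1 library. The 5 fibroblast and smooth muscle markers summed to 28747 to 40770, 33049 to 38499 and 27833 to 55904 CPM. The 5 leukocyte markers summed to 676 to 1014, 817 to 1260 and 660 to 1423 CPM, most of it miR-150-5p (378 to 1202 CPM); the median log2 fold change over the 5 was -0.57 for irradiated against control. The 2 endothelial markers summed to 11645 to 14615, 8537 to 14043 and 10147 to 15599 CPM. Sums of 3 erythroid markers ran from 917 to 2092, 790 to 4202 and 673 to 3470 CPM. The most abundant neural and endocrine marker was miR-375-3p (1315 to 2193 CPM over all libraries). For fibroblast and smooth muscle it was miR-143-3p (24249 to 52336 CPM), and for the erythroid list miR-486 (666 to 3952 CPM). All of these sums overlapped between groups, and none of the tested markers on the 5 lists was called in any comparison. Of 4 skeletal and heart muscle markers, 3 were tested; they summed to 261 to 540, 189 to 267 and 185 to 226 CPM, and 1 was lower in lisinopril than in control kidneys. The 7 kidney tubule markers summed to 445009 to 752812 CPM in control, 367954 to 492202 in irradiated and 465673 to 586101 in lisinopril kidneys, with miR-10a-5p the most abundant of them. Their median log2 fold change was -0.31 for irradiated against control and 0.35 for lisinopril against irradiated, and none was called. The markers' part in the results was not tested.

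miR-434-3p, the next miRNA along Rtl1, showed no such order. Control rats had 3.22, 6.38, 5.01 and 6.02 CPM, irradiated rats 6.17, 8.69, 6.84 and 3.71, and lisinopril rats 7.36, 4.49, 5.69, 5.24 and 7.30. All 3 groups overlapped. Its log2 fold change was 0.37 for irradiated against control (95% interval -0.23 to 0.97, adjusted p = 0.431), 0.28 for lisinopril against control (-0.29 to 0.85, adjusted p = 0.631) and -0.095 for lisinopril against irradiated (-0.63 to 0.44, adjusted p = 0.889). The overlapping entry miR-3543 gave 0.40, 0.26 and -0.14 in the same order. The estimate of miR-127-3p for lisinopril against control (1.07) lay outside the interval of miR-434-3p, but its own interval (0.71 to 1.43) overlapped that interval. These intervals alone do not show that the 2 miRNAs changed unequally.

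A ratio of 2 counts from the same library needs no scaling, and that of miR-127-3p to miR-434-3p was examined after their values were seen. Control libraries had 5.08, 2.67, 3.46 and 2.75 reads of miR-127-3p per read of miR-434-3p. Without the drug, irradiated libraries had 3.15, 3.36, 2.88 and 5.82, and lisinopril libraries had 3.76, 7.28, 6.96, 8 and 4.75. Exact permutation tests of the log2 ratio gave p = 0.629 for irradiated against control, 0.0794 for lisinopril against irradiated and 0.0397 for lisinopril against control. Adjusted over these 3 comparisons the values were 0.629, 0.119 and 0.119, so unequal change of the 2 neighbours was not established.

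miR-136-3p, the last miRNA opposite Rtl1, was lowest in the rats irradiated without the drug. It was at 1.8, 3.19, 1.54 and 0.944 CPM in control rats, the second value resting on 3 reads. Irradiated rats had 1.12, 0.620, 0.977 and 1.01 CPM, and lisinopril rats 1.14, 1.67, 1.76, 2.43 and 1.51 CPM. Every lisinopril rat lay above every rat irradiated without the drug, by a margin of 1.14 against 1.12 CPM at the nearest pair, and 4.3% of tested miRNAs had no overlap in that comparison. The log2 fold change was 0.91 for lisinopril against irradiated (95% interval 0.23 to 1.59, adjusted p = 0.229; exact permutation p = 0.0159) and -0.74 for irradiated against control (-1.5 to 0.022, adjusted p = 0.233). Against control, lisinopril kidneys were at 0.17 (-0.46 to 0.81, adjusted p = 0.822), and this value changed sign without control library 4 (-0.058) or lisinopril library 4 (-0.0026).

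miR-341, the last of the 6 before the block, was low in every kidney. Control rats had 0.901, 1.06, 0.675 and 0.708 CPM, from 7, 1, 7 and 6 reads. Irradiated rats had 1.68, 0.620, 1.26 and 1.35 CPM, and lisinopril rats 2.45, 0.940, 2.17, 2.52 and 1.74 CPM. Of the 5 lisinopril rats, 4 lay above all controls and rat 2 lay among them.

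For miR-341, lisinopril against control came to 1.32 on the log2 scale (SE 0.360, edgeR, adjusted p = 0.0413; exact permutation p = 0.0238). Pooled over libraries, 86 reads in lisinopril and 21 in control kidneys gave 1.94 and 0.762 CPM. The call was lost in 11 of 24 alternatives, over which the adjusted p ran from 0.0113 to 0.121 with log2 fold changes of 1.04 to 1.5. It was lost with DESeq2 (0.0529), limma-voom (0.114), and limma-voom with quality weights (0.0512). It was also lost without control library 1 (0.0657), 3 (0.121) or 4 (0.12), irradiated library 3 (0.0525), or lisinopril library 1 (0.0766), 3 (0.0822), 4 (0.0945) or 5 (0.0754). The other comparisons gave 0.62 (irradiated against control, adjusted p = 0.378) and 0.71 (lisinopril against irradiated, adjusted p = 0.324).

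**Figure D2:**
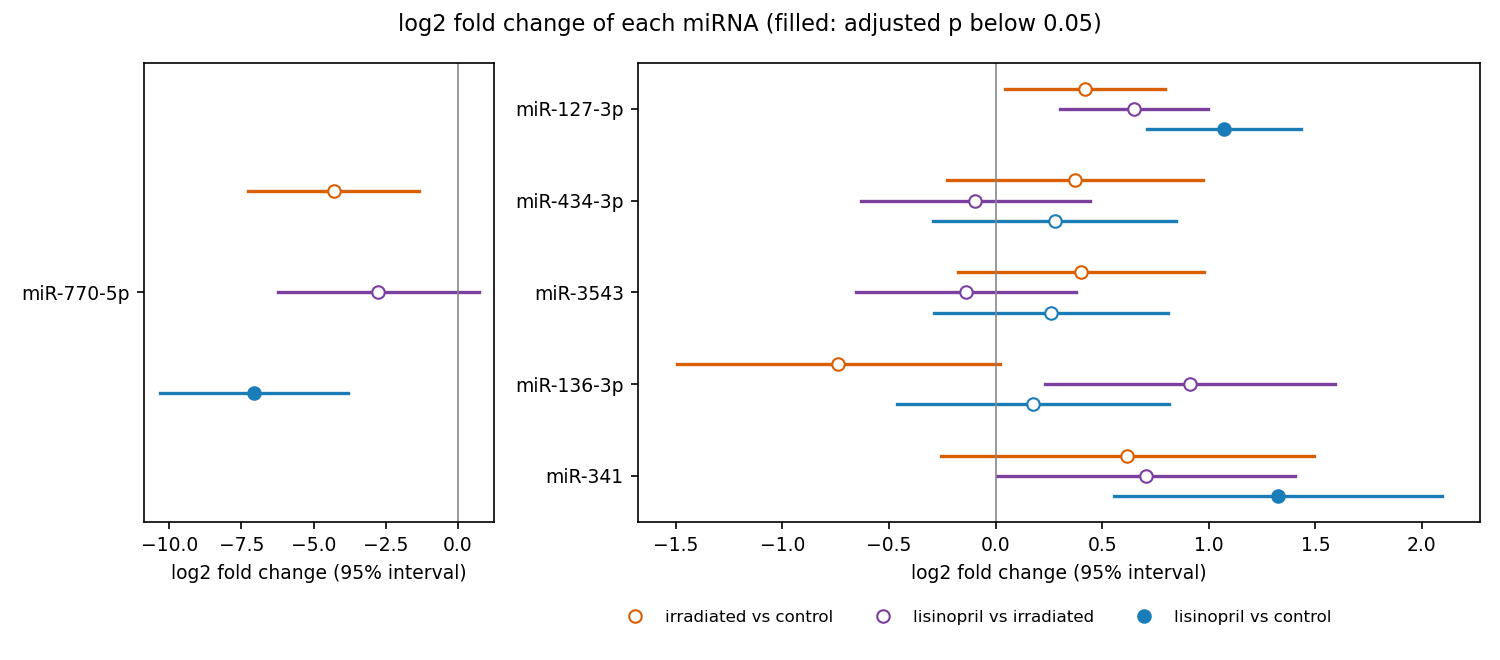
log2 fold change (horizontal axis) of each miRNA with its 95% interval from the edgeR fit, for the 3 comparisons; filled points have an adjusted p below 0.05, and miR-770-5p has an axis of its own. The filled points are those of lisinopril against control for miR-127-3p (1.07), miR-341 (1.32) and miR-770-5p (-7.07).

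miR-770-5p, the miRNA inside Meg3, followed another course. It had 36, 229, 28 and 26 reads in control libraries 1 to 4, or 4.64, 244, 2.70 and 3.07 CPM. In irradiated libraries it had 41, 4, 21 and 4 reads, or 7.66, 0.496, 2.93 and 0.674 CPM. Lisinopril libraries held 9, 3, 1, 1 and 3 reads, or 1.47, 0.313, 0.103, 0.0970 and 0.348 CPM. The shallowest library thus held the most reads, all 5 lisinopril rats lay below all 4 controls, and irradiated rats were spread from below the lowest to above the second highest control. Between lisinopril and control, 13.4% of all tested miRNAs had no overlap.

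Under lisinopril, miR-770-5p fell against control by 7.07 on the log2 scale (SE 1.53, edgeR, adjusted p = 0.0115; exact permutation p = 0.00794). Without control library 2 the fitted value was -3.07 (adjusted p = 0.0384), and the 5 lisinopril rats still lay below the 3 remaining controls (exact permutation p = 0.0179, the lowest possible with 3 and 5 rats). Pooled reads of those 3 controls were 90, or 3.38 CPM, against 17, or 0.384 CPM, in lisinopril libraries, a ratio of 8.81 (95% interval 5.21 to 15.8, for counting error only). Of these 17 reads, 9 were in lisinopril library 1. Lisinopril libraries 2 to 5 held 1 to 3 reads each, at or under the floor of 3 counts. The call was lost with limma-voom (adjusted p = 0.0636) and with a robust dispersion (0.0527), and DESeq2 gave no adjusted p. For irradiated against control the log2 fold change was -4.30 (adjusted p = 0.0916) with control library 2 and -0.29 (adjusted p = 0.858) without it. Lisinopril against irradiated gave -2.77 (adjusted p = 0.415); limma-voom with quality weights called it (-3.59, adjusted p = 0.0297).

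The level of miR-770-5p moved with features outside the rat miRNAs. Likeness was measured as the root-mean-square difference of log2 CPM, each feature centred on its own mean over the 13 libraries, so that 0 means equal courses. The closest rat miRNAs were miR-3473, at 1.27, and miR-140-5p, at 1.81, beside 2.42 for the spread of miR-770-5p itself. Of the 194 features named after other species, 21 were closer than miR-3473. Control library 2, with miR-770-5p at 244 CPM against at most 7.66 CPM in any other library, weighs heavily on these distances. They were not computed without it. The 3 closest were the shared entry of hsa-miR-1303 and ptr-miR-1303 (0.598), bta-miR-1940 (0.653) and bta-miR-1434-5p (0.673), named for this rank after the values were seen. bta-miR-1940 was at 1369 CPM in control library 2 and reached 31.9 CPM in the other controls, 6.91 to 25.6 CPM in irradiated and 3.36 to 5.02 CPM in lisinopril libraries. The libraries share depth and composition, and whether these features and miR-770-5p count a common kind of RNA was not tested.

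**Figure D3:**
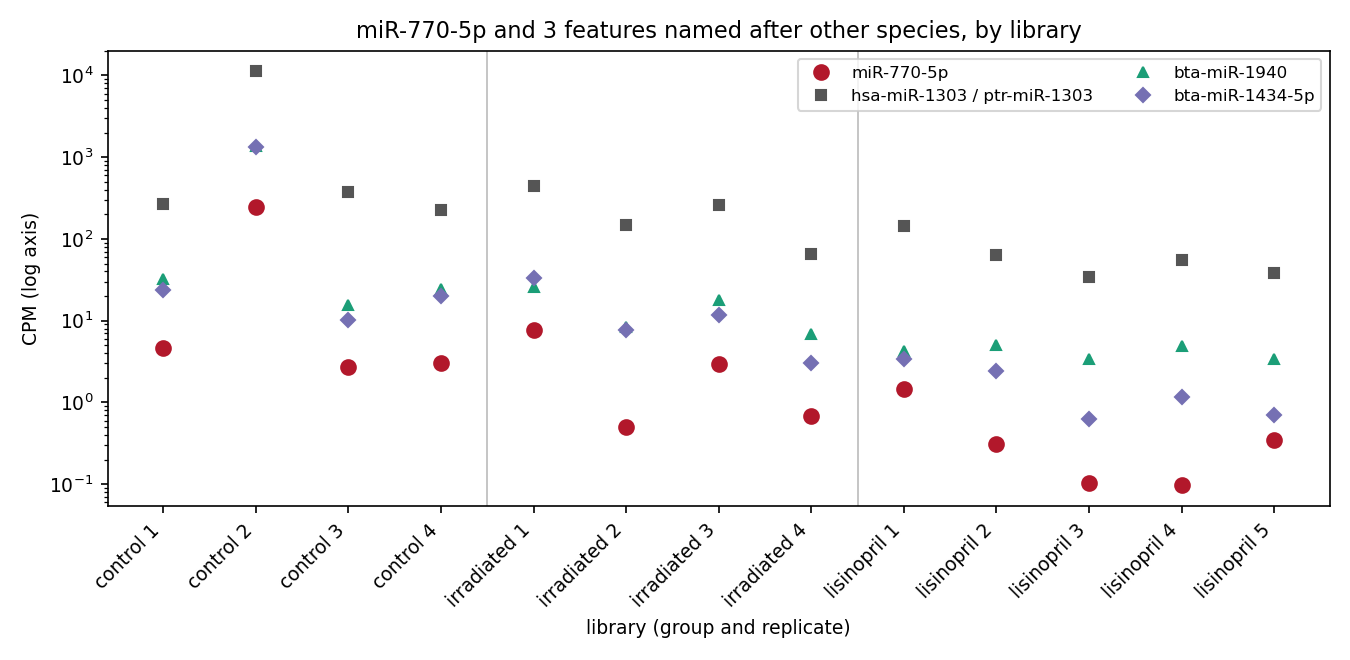
CPM (vertical axis, log scale) of miR-770-5p and of the 3 closest features named after other species in each of the 13 libraries (horizontal axis), ordered by group. All 4 were highest in control library 2, where miR-770-5p was at 244 CPM, and in each the 5 lisinopril libraries lay below the 4 controls. The 3 features were picked for closeness over these same libraries, so a like course follows in part from the choice.

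The other members had smaller distances to their closest miRNAs, but also smaller spreads of their own. The distances therefore do not rank closeness across members. For miR-127-3p the closest were miR-92b-3p (0.325) and miR-301a-5p (0.329), beside its own spread of 0.477. miR-434-3p (own spread 0.371) was closest to miR-3543 (0.05) and then miR-671 (0.215). After that pair, miR-3543 (own spread 0.355) was closest to let-7i-3p (0.201). miR-136-3p (own spread 0.507) had miR-145-3p (0.291) and the very abundant miR-10a-5p (0.304). miR-341 (own spread 0.556) had let-7g-5p (0.345) and miR-509-3p (0.4). These are descriptions over 13 libraries that share their groups. Apart from the overlapping pair, no member was among the closest companions of another, and the nearest such pair was miR-127-3p and miR-341 (0.473).

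The miRNAs past the snoRNA block served as the rest of the region, 30 of 38 measured ones having been tested. In irradiated against control kidneys all 30 had a negative log2 fold change (median -0.61), with miR-541-5p (-0.76) and miR-411-5p (-0.91) the 2 that fell; under scaling by library totals, 28 of 30 were negative and none was called. With lisinopril against control all 30 were negative (median -0.85) and 11 fell, or 7 under scaling by library totals. The smallest p-values there were those of miR-541-5p (log2 fold change -1.18), miR-409b (-1.33), miR-1193-3p (-1.53) and miR-3578 (-0.86). miR-3578 is annotated on the opposite strand to its neighbour miR-369-5p. Their means were close: 5.50 and 5.80 CPM in control, 4.10 and 4.17 in irradiated, 2.91 and 3.08 in lisinopril kidneys. Both are counted among the 30 and the 11, and whether they count the same reads was not tested. Before the block, 4 and 5 of 6 log2 fold changes were positive in the same comparisons. These counts were the same under the 3 other scalings. The 6 names count the overlapping pair of miR-434-3p and miR-3543 as 2 entries, positive in both comparisons. The medians of 0.39 and 0.27 lay between that pair's 2 values (0.37 and 0.40, then 0.28 and 0.26). Over all 419 miRNAs, 217 and 239 log2 fold changes were positive, with medians of 0.02 and 0.05. The difference between the 2 stretches as lists was not tested.

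**Figure D4:**
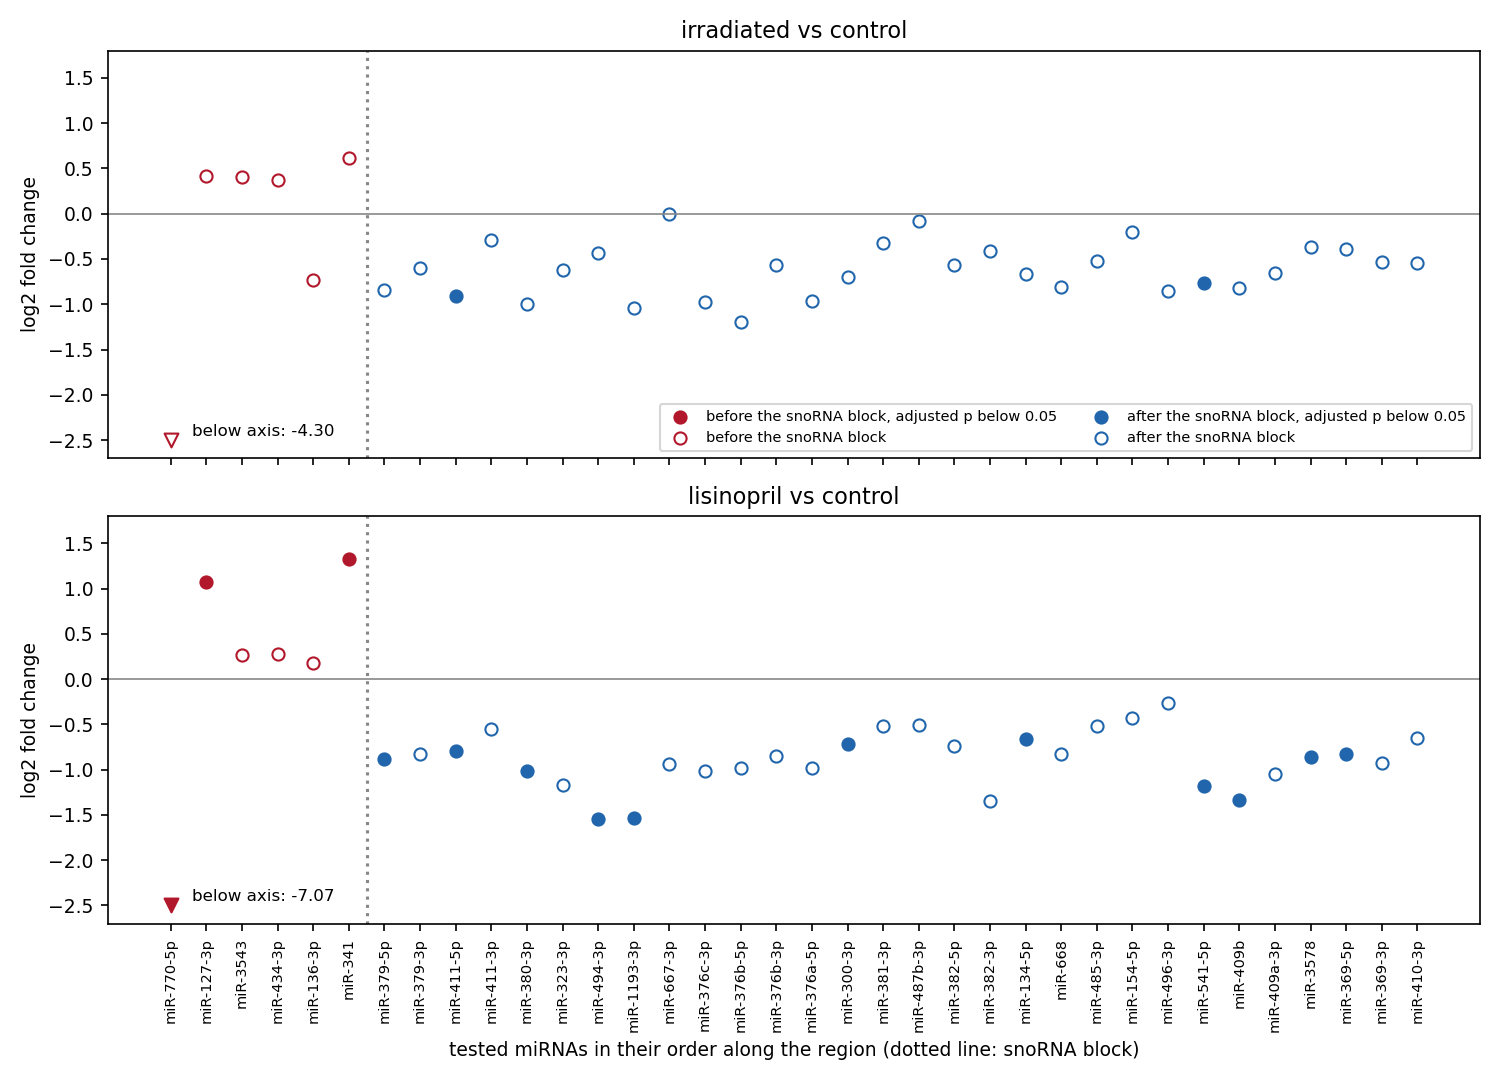
log2 fold change (vertical axis) of the 36 tested miRNAs of the region in their order along chromosome 6 (horizontal axis, not to scale), for irradiated against control (top) and lisinopril against control (bottom); filled symbols have an adjusted p below 0.05, and triangles mark miR-770-5p below the axis. All 30 points right of the dotted line lie below 0, and 4 (top) and 5 (bottom) of 6 points left of it lie above 0.

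Reads of miR-127-3p set against the summed reads of those 30 miRNAs in the same library, a ratio that needs no scaling, separated the groups. There were 3.13, 3.17, 3.36 and 2.16 reads of miR-127-3p per 100 in control libraries, 5.17, 8.54, 4.71 and 7.00 in irradiated libraries, and 9.15, 11.3, 10.9, 12.6 and 11.6 in lisinopril libraries. No 2 groups overlapped, and the means were 2.95 ± 0.54 (SD, n = 4), 6.35 ± 1.76 (n = 4) and 11.1 ± 1.25 (n = 5). Both sides of the ratio moved: the 30 miRNAs summed to 516 to 765 CPM in control, 308 to 418 in irradiated and 288 to 364 in lisinopril kidneys. The ratio was formed after both courses were known and is given as a description with no test.

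**Figure D5:**
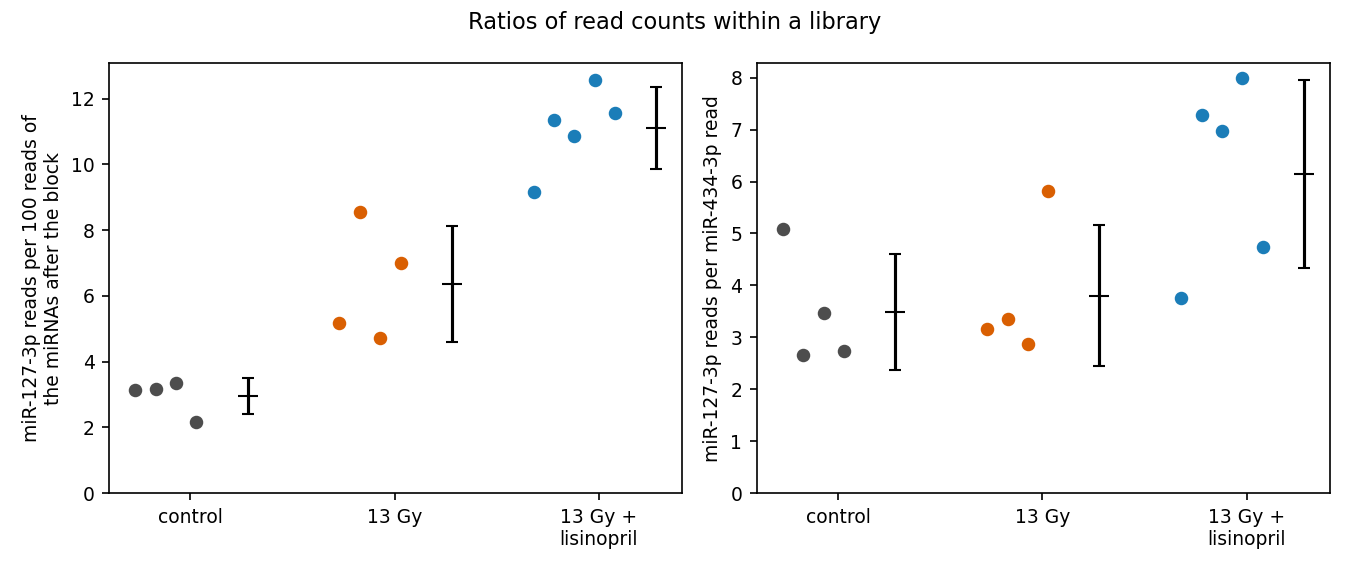
Reads of miR-127-3p per 100 reads of the 30 miRNAs after the block (left) and per read of miR-434-3p (right), in each library (points) by group, with mean ± SD as black bars. On the left the 3 groups do not overlap (2.16 to 3.36, 4.71 to 8.54 and 9.15 to 12.6), and on the right they do.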

How the data were processed

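Per the labels' protocols, a TruSeq kit was used to build the small RNA libraries from kidney RNA of 13 rats. The submitters' processing notes name Trim Galore 0.2.5, Bowtie 1.1.1 and the rn4 build; no source used here states how strand and multiply mapping reads were treated. Whole-number counts were deposited by the authors for 1121 features, of which the 460 rat mature miRNAs were used. Groups came from the labels' group names, which give no batch or pairing.

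In R 4.3.3, edgeR 4.0.16 kept 419 miRNAs (filterByExpr), scaled by TMM (factors 0.787 to 1.19) and tested group means by quasi-likelihood over all 13 libraries in 1 fit. Benjamini-Hochberg adjustment ran over the 419, with a threshold of 0.05. Log2 CPM used a prior count of 2. Exact permutation tests (18, two-sided, unadjusted) ran over all arrangements of libraries. Alternatives used DESeq2 1.42.0 and limma 3.58.1. Binomial and count-ratio intervals are exact, at 95%.

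The members and lists were chosen with earlier results of these data known. All 6 members are named; elsewhere in the region, up to the 4 smallest p per comparison; and for each member the 2 miRNAs closest in likeness. The 1 liver marker listed was not found by name among the rat miRNAs of the count table, so it has no level here. RefSeq sequences (GRCr8) matched 414 of 460 miRNAs.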

Additional observations from a re-analysis of the deposited data

Results flagged for a closer look

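In 2 of 18 combinations of miRNA and group, a single rat lay far from the others of its group by Dixon's gap test on CPM. For normally distributed values about 1 in 20 would pass, a rate that may not hold for CPM from few reads. The 18 count the overlapping pair as 2 miRNAs. Control library 2 had miR-770-5p at 244 CPM, with the other 3 controls at 2.70 to 4.64 CPM. It is the shallowest library, and 29.0% of its mature counts lay in features named after other species. Lisinopril library 1 had miR-770-5p at 1.47 CPM, from 9 reads, with the other 4 at 0.0970 to 0.348 CPM from 1 to 3 reads each. Its removal moved the log2 fold change against control from -7.07 to -7.96 (adjusted p = 0.0168).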

How the results depend on the processing

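Across 426 combinations of member, comparison and alternative, 406 kept direction and side of the threshold, 13 lost a call, 3 gained one and 4 changed sign. Most of the 406 were results without a call that stayed so, and do not measure how stable the calls are. The calls were lost in 2 of 24 alternatives for miR-770-5p, 11 of 24 for miR-341 and 0 of 25 for miR-127-3p. Combinations in which a member was filtered out or had no adjusted p are not among the 426. Members called for lisinopril against control were 3, but 1 with DESeq2 and 1 with limma-voom, and 2 to 3 when single libraries were left out. Members to which DESeq2 gave no adjusted p count as not called. For lisinopril against irradiated they were 0, but 1 with DESeq2 (9 of all 419 miRNAs) and 2 with limma-voom with quality weights (33 of all 419), and 0 to 0 when libraries were left out, also without irradiated library 4, which raised the calls over all miRNAs from 0 to 47 of 429; for irradiated against control they were 0 throughout. With single libraries left out, log2 fold changes of lisinopril against irradiated ran from -0.31 to 0.089 for miR-434-3p and from -0.33 to 0.038 for miR-3543, positive only without irradiated library 2, and that of miR-136-3p, lisinopril against control, from -0.058 to 0.29, negative without control library 4 or lisinopril library 4 (-0.0026); the cause was not tested. Of the 18 exact tests, 6 had a p of at most 0.05, and 4 to 7 when single libraries were left out, an alternative chosen after seeing the data. Exact tests were not run over all miRNAs, so this count has no background share. The 18 count the overlapping pair as 2 miRNAs, and the comparisons share groups. Low unadjusted p-values were common: edgeR gave p under 0.05 for 93 (irradiated against control), 63 (lisinopril against irradiated) and 95 (lisinopril against control) of all 419. Scaling by library totals moved the median of all miRNAs by 0.23 (irradiated against control) and -0.19 (lisinopril against irradiated). A floor on mean CPM of 10 removed all members but miR-127-3p and miR-770-5p from testing. No paired analysis was possible because the labels give no replicate numbers shared between groups. At a few reads per library, depth limits miR-136-3p, miR-341 and, under lisinopril, miR-770-5p.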

Other observations

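A further 3 arms from before the snoRNA block were counted but fell under the low-count filter. miR-431, which lies opposite Rtl1, had 3, 0, 1 and 1 reads in control libraries, 2, 1, 1 and 3 in irradiated and 2, 11, 12, 14 and 6 in lisinopril libraries, or at most 0.386, 0.505 and 1.36 CPM. Its highest values were in lisinopril kidneys, and no test is given. miR-136-5p had 20, 8 and 19 reads in the 3 groups and miR-434-5p 12, 12 and 32.

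The 3p arm took most reads of both hairpins. For miR-434 it held 91.8% of reads in control (95% exact interval 86.1 to 95.7), 93.5% in irradiated (89.0 to 96.6) and 89.0% in lisinopril kidneys (84.9 to 92.4). For miR-136 the shares were 67.2% (54.0 to 78.7), 75% (56.6 to 88.5) and 80.4% (71.1 to 87.8). The intervals cover counting error only and overlap between all groups. Reads of miR-434-3p cannot be told apart from those of miR-3543. The share for miR-434 therefore also depends on how reads were assigned to strands, which no source used here states.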
